A study of Mus musculus with 3 samples.

Results

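The genes described here are 41 genes known as targets of type I interferons, taken by symbol from the feature lists of a single-nucleus RNA-seq study of a large salivary gland of the mouse, the submandibular gland. Of the 41 symbols, 39 had a row among the 32285 genes of the files, and Mx1 and Mx2, which had none, are not analysed here. All mice were wild type (WT). The Non-IR library came from untreated glands, the IR+saline library from irradiated glands of mice given saline, and the IR+pilocarpine library from irradiated glands of mice given pilocarpine, a muscarinic receptor agonist that stimulates saliva secretion. The titles place both irradiated libraries at 90 days after irradiation, with pilocarpine from day 30 to day 90, and the protocol places them at 93 days. Irradiation and saline cannot be told apart against Non-IR, because the untreated label names no saline, and the labels do not give the number, sex or age of the mice. Nuclei were taken from frozen glands, sorted on the DNA stain DAPI and sequenced from the 3′ ends of their RNA with a droplet kit.

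There was 1 library per group, so no difference between groups could be tested, and every interval below is a 95% interval that covers counting error only. A total of 10635, 8622 and 8376 nuclei were used from Non-IR, IR+saline and IR+pilocarpine, with medians of 1536, 2113 and 2048 unique molecular identifiers (UMIs, each a counted RNA molecule) per nucleus, and 24 to 26 barcodes were shared by any pair of libraries. Nuclei were grouped without the 39 genes into 22 clusters, most of which were named from markers as like acinar cells, granular or striated duct cells, fibroblasts, endothelial cells, macrophages and other types. Levels are UMIs of a gene scaled to 1000000 UMIs of the class in that library (CPM). In every library the endothelial-like nuclei carried Flt1 at 1792 to 2611 CPM, against at most 23.3 CPM in all other nuclei, and the macrophage-like nuclei carried Mrc1 at 234 to 296 CPM, against at most 6.85 CPM. The acinar-like nuclei of Non-IR fell mostly in clusters 2 and 3 and those of the irradiated libraries in clusters 0 and 1, so the acinar sum and the levels of Usp18, Ifi27l2a and Rsad2 are also given within clusters.

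Type I interferons bind the receptor IFNAR1/IFNAR2 on the cell surface, and the kinases JAK1 and TYK2 then phosphorylate STAT proteins, among them STAT2. STAT2 acts with IRF9 in a complex, ISGF3, that binds the interferon-stimulated response element (ISRE) near the start of its target genes. The targets include sensors of viral nucleic acid, antiviral effectors, and genes such as Usp18 that damp the response, and many of them also answer to type II or type III interferons.

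The ISRE is the sequence that ISGF3 binds, so its letters were looked for first. Of the 29 genes with a promoter entry in the RefSeq table (GRCm38.p6), 10 held GAAA followed after any 2 bases by another GAAA, on either strand, within 250 bases before the start, or 34.5%, against 936 of 27025 genes (3.46%). The 10 were Ifit1, Ifit3, Ifit3b, Isg15, Oas1a, Oas3, Trim30a, Stat2, Rsad2 and Bst2. A match describes the letters of the window and is not a measured binding site. The windows of 6 of the 10 genes are printed 5′ to 3′ on the strand of the gene. These ISRE letters, or their reverse complement, are in capitals, with overlapping copies joined.
Isg15, chr4:156200850-156200921, minus strand: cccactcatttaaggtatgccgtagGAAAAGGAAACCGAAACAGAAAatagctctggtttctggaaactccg
Ifit1, chr19:34640760-34640838, plus strand: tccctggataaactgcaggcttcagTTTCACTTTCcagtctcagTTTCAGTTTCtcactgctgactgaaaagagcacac
Ifit3, chr19:34583348-34583441, plus strand: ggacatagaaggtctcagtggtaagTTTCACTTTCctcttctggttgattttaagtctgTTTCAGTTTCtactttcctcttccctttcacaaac
Ifit3b, chr19:34607744-34607837, plus strand: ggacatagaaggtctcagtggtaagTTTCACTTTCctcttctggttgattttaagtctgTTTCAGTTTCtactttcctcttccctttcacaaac
Bst2, chr8:71537562-71537627, minus strand: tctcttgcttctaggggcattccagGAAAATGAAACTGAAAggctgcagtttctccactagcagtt
Rsad2, chr12:26456538-26456597, minus strand: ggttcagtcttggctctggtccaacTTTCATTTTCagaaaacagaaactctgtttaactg
Isg15 held 3 overlapping copies and Rsad2 held 1. The windows of Ifit3 and Ifit3b, neighbouring copies on chromosome 19, were identical at 94 of 94 bases, and 35.1% of the 90-base windows of the Ifit3 transcript were also found in Ifit3b. Counts of this pair are therefore uncertain, as are those of Oas1a, which shared 43.4% of its transcript windows with Oas1g, of Herc6 (21.5% with Gm45193) and of Ifi204 (18.1% with Ifi211, Mndal and Ifi207).

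The 39 genes together were at their lowest level in Non-IR in each class of the plot of summed levels. In acinar-like nuclei their UMIs summed to 1410 CPM in Non-IR, 1640 in IR+saline and 1678 in IR+pilocarpine. Within clusters 0 and 1, which hold most irradiated acinar-like nuclei, the sums were 1548, 1630 and 1688 CPM and 1663, 1648 and 1693 CPM, with ratios of IR+saline to Non-IR of 1.05 (0.993 to 1.12) and 0.991 (0.912 to 1.08) whose intervals held no difference. Within clusters 2 and 3, which hold most Non-IR acinar-like nuclei, they were 1387, 1637 and 1562 CPM and 1433, 1938 and 1608 CPM, with ratios of 1.18 (1.09 to 1.28) and 1.35 (1.23 to 1.49). In granular or striated duct-like nuclei the sums were 1353, 1985 and 1659 CPM, in fibroblast-like nuclei 1889, 2858 and 2854 CPM, and in endothelial-like nuclei 2579, 3040 and 2767 CPM. The macrophage-like nuclei carried 1967, 3044 and 2917 CPM. Thus the endothelial-like nuclei had the highest sum of these 5 classes in Non-IR, while in each irradiated library the intervals of the endothelial-like, macrophage-like and fibroblast-like sums overlapped.

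**Figure D1:**
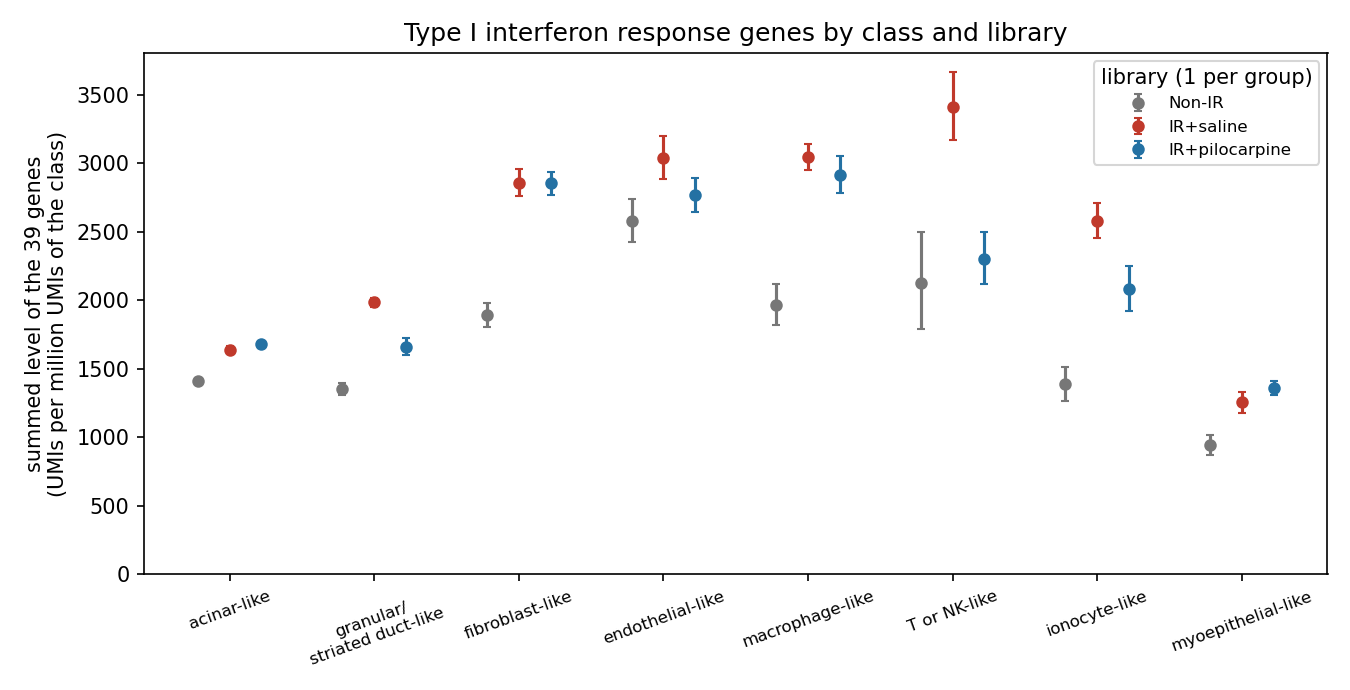
Summed level of the 39 genes (CPM, linear axis from 0) in 8 classes of nuclei, with 1 point per library and 95% Poisson bars. Non-IR is lowest in every class shown, the duct-like, T or NK-like and ionocyte-like points of IR+pilocarpine lie below those of IR+saline, and the fibroblast-like points of both irradiated libraries lie together at 2858 and 2854.

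In acinar-like nuclei a large part of each sum was Sp100, which encodes a scaffold protein of PML nuclear bodies. In that class this gene did not follow the rest. It held 38.4% of the genes' UMIs in acinar-like nuclei of Non-IR, 25.9% in IR+saline and 26.9% in IR+pilocarpine, shares that are not divided by gene length. Its level there was 541, 425 and 451 CPM, 1.28-fold lower (1.23 to 1.32) in IR+saline than in Non-IR. Without Sp100 the acinar sum was 1.40-fold higher in IR+saline than in Non-IR, against 1.16-fold with it. Stat2, Ifi27, Ddx58 and Irf9 held most of the remaining acinar UMIs, and none of them differed by 2-fold between any pair of libraries in that class. In other classes Sp100 was at 522, 509 and 449 CPM in duct-like, 401, 439 and 498 in fibroblast-like, 666, 611 and 571 in endothelial-like, and 530, 498 and 491 in macrophage-like nuclei of Non-IR, IR+saline and IR+pilocarpine, without a 2-fold difference. In ionocyte-like nuclei, at 399, 567 and 448 CPM, it was 1.42-fold higher (1.17 to 1.73) in IR+saline than in Non-IR.

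The comparison of IR+saline with Non-IR asks how the irradiated gland stood about 3 months later. In duct-like nuclei, which in this gland make growth factors and kallikreins, 16 of the 33 genes that had 20 or more UMIs over the pair of libraries were at least 2-fold higher in IR+saline and 1 was lower, against 4.27% and 1.91% of the 12806 genes that met the same minimum. In fibroblast-like nuclei 14 of 31 were higher and none lower (background 5.06% and 5.55%), and in macrophage-like nuclei 14 of 33 and none (7.47% and 2.98%). In endothelial-like nuclei the counts were 7 of 26 and none (4.4% and 3.61%), and in acinar-like nuclei 7 higher and 2 lower of 33 (3.39% and 3.07%). The minimum is over the pair, and IR+saline held more UMIs than Non-IR in each of these classes but the acinar-like one. In macrophage-like nuclei it held 1299807 UMIs against 337581. A gene could thus pass through IR+saline alone, and a lower gene needed a higher level to pass. The median log2 ratio over the genes that met the minimum was 0.86 in duct-like, 0.71 in fibroblast-like, 0.81 in macrophage-like, 0.34 in endothelial-like and 0.44 in acinar-like nuclei, where the median over all genes lay between -0.03 and 0.01. The summed level was 1.47-fold higher (1.42 to 1.52) in duct-like nuclei, 1.51-fold (1.43 to 1.60) in fibroblast-like, 1.55-fold (1.42 to 1.68) in macrophage-like, 1.18-fold (1.09 to 1.28) in endothelial-like and 1.16-fold (1.14 to 1.19) in acinar-like nuclei, the last with intervals that held no difference within acinar clusters 0 and 1. The 9 macrophage markers summed to 49.6, 66.2 and 47.3 CPM in duct-like nuclei of Non-IR, IR+saline and IR+pilocarpine and to 47.9, 69.98 and 66.5 CPM in fibroblast-like nuclei, with Cd163 at 0 in each library of the latter, against at least 1111 CPM in macrophage-like nuclei, and their part in the differences was not tested.

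**Figure D2:**
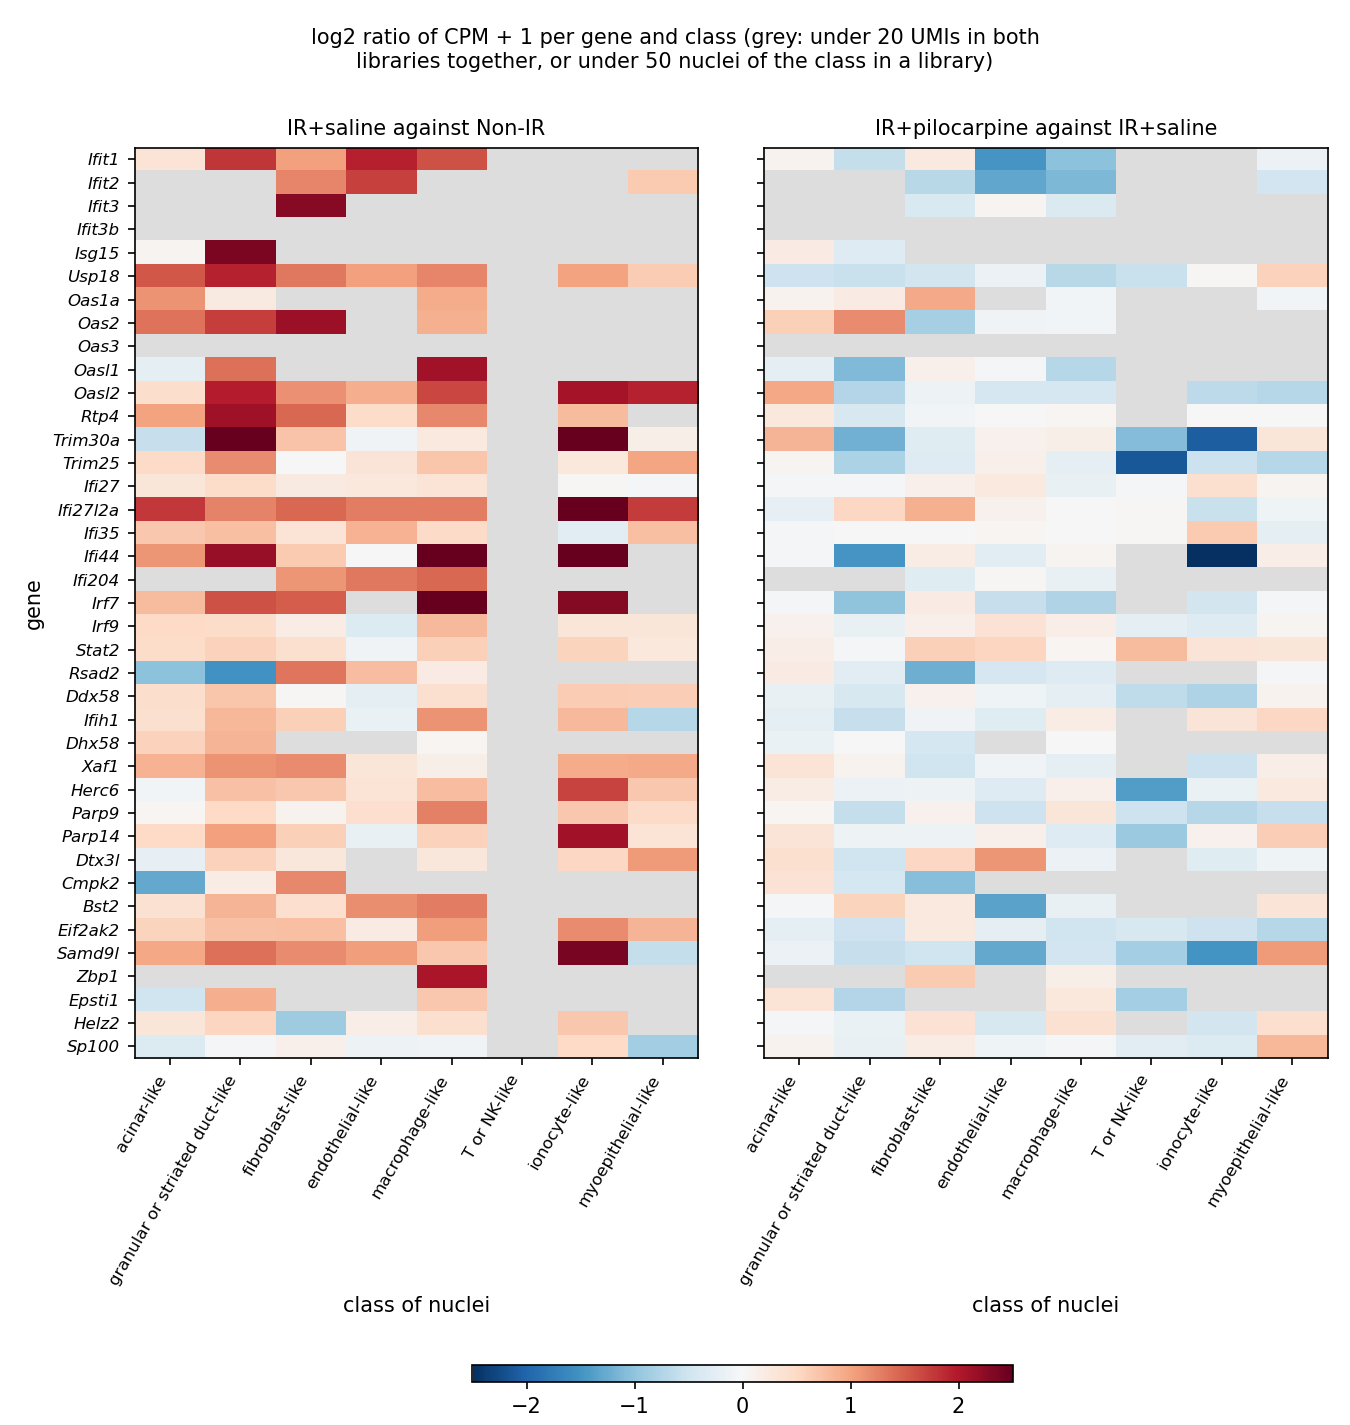
log2 ratio of CPM + 1 for each of the 39 genes (rows) in 8 classes of nuclei (columns), for IR+saline against Non-IR on the left and IR+pilocarpine against IR+saline on the right. Red is higher and blue lower in the library named first and grey marks genes under 20 UMIs or a class under 50 nuclei, and the left panel is mostly red in the duct-like, fibroblast-like and macrophage-like columns with Rsad2 blue in the acinar-like and duct-like ones.

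The cytosolic sensors of RNA were higher by less than 2-fold in most classes. Ddx58, which encodes RIG-I, stood at 44.5, 72.8 and 55.2 CPM in duct-like nuclei of Non-IR, IR+saline and IR+pilocarpine, and at 69.4, 94.7 and 82.8 CPM in acinar-like nuclei. In both classes Ddx58 was lowest in Non-IR and highest in IR+saline. Ifih1, which encodes MDA5, was at 38.5, 84.6 and 96.3 CPM in macrophage-like nuclei, 2.20-fold higher (1.23 to 4.26) in IR+saline than in Non-IR. Eif2ak2, whose product PKR stops translation on binding double-stranded RNA, was at 59.2, 124 and 87.0 CPM there, a 2.09-fold difference (1.31 to 3.51). Eif2ak2 was also highest in IR+saline, at 58.0, 97.6 and 68.1 CPM in duct-like and 44.0, 65.2 and 55.4 CPM in acinar-like nuclei, and so was Ifih1, at 57.3, 76.1 and 63.9 CPM in acinar-like nuclei. In the endothelial-like nuclei Ddx58 and Ifih1 were highest in Non-IR, with intervals of the ratio to IR+saline that held no difference.

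Ifi204, a member of a family of nuclear DNA sensors, had its highest level in fibroblast-like nuclei. In fibroblast-like nuclei it stood at 130 CPM in Non-IR, 282 in IR+saline and 227 in IR+pilocarpine, 2.16-fold higher (1.76 to 2.68) in IR+saline than in Non-IR. Macrophage-like nuclei held 32.6, 90.0 and 79.3 CPM. In acinar-like nuclei only 13, 2 and 12 UMIs of it were counted in the same order, so the gene was seen there at or under 1.04 CPM. With at most 1 UMI of the gene counted per nucleus, a reading added after the data were seen, the fibroblast-like ratio was 1.64, below the 2-fold mark. Zbp1, a sensor of Z-form nucleic acid, was at 2.96, 15.4 and 17.1 CPM in macrophage-like nuclei, resting on 1 UMI in Non-IR.

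Among the transcription factors, Stat2 and Irf9 differed less than Irf7. Stat2 was at 162, 241 and 233 CPM in duct-like nuclei, and Irf9 at 63.4, 87.2 and 76.1 CPM, neither past 2-fold. In acinar-like nuclei Stat2 was at 204, 281 and 313 CPM, and Irf9 was at 56.8, 80.4 and 86.9 CPM there. In fibroblast-like nuclei Stat2 was at 177, 233 and 352 CPM, 1.51-fold higher (1.30 to 1.76) in IR+pilocarpine than in IR+saline. The same gene was at 194, 182 and 265 CPM in endothelial-like and 175, 264 and 272 CPM in macrophage-like nuclei, so IR+pilocarpine had the most Stat2 in each of these classes but the duct-like one. Irf7, which amplifies the interferon response, was at 3.37, 12.2 and 5.52 CPM in duct-like nuclei, 3.60-fold higher (1.86 to 7.81) in IR+saline than in Non-IR. In macrophage-like nuclei Irf7 had 0 UMIs in Non-IR, where 3 UMIs would be 8.89 CPM, against 26.9 CPM in IR+saline and 15.5 in IR+pilocarpine. In both classes IR+pilocarpine lay between the other libraries.

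The genes of the ISG15 system were among the clearest. Usp18, the protease that removes ISG15 from proteins and also blocks the receptor IFNAR2, was at 15.5 CPM in acinar-like nuclei of Non-IR, 47.5 in IR+saline and 32.8 in IR+pilocarpine, 3.07-fold higher (2.60 to 3.64) in IR+saline than in Non-IR. In duct-like nuclei it was at 12.8, 51.6 and 35.0 CPM, a 4.03-fold difference (2.87 to 5.79). The order Non-IR, IR+pilocarpine, IR+saline held for Usp18 in the acinar-like, duct-like, fibroblast-like, endothelial-like and macrophage-like nuclei. Within acinar cluster 0 the levels were 17.4, 49.5 and 36.2 CPM, and within cluster 3 they were 17.0, 39.8 and 21.7 CPM. Isg15 itself, the ubiquitin-like modifier, had 0, 26 and 5 UMIs in duct-like nuclei, or 4.11 CPM in IR+saline where 3 UMIs in Non-IR would be 1.01 CPM, and in acinar-like nuclei it stood at 1.28, 1.39 and 1.77 CPM with no 2-fold difference.

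The oligoadenylate synthetase family, whose active members make the 2-5A messenger of RNase L, split between cell classes. Oasl2 was at 21.9, 88.3 and 52.8 CPM in duct-like nuclei, 4.02-fold higher (3.11 to 5.29) in IR+saline than in Non-IR, and this rested on 49, 357 and 64 nuclei with a UMI. In acinar-like nuclei the same gene was at 4.33, 6.21 and 13.1 CPM and was highest in IR+pilocarpine, 2.11-fold above IR+saline (1.58 to 2.85). Oas2 was at 21.9, 99.0 and 55.2 CPM in the fibroblast-like class, a 4.53-fold difference (2.83 to 7.59) between IR+saline and Non-IR. It too was highest in IR+pilocarpine, with 3.21, 9.82 and 15.4 CPM in acinar-like and 0.675, 4.58 and 11.7 CPM in duct-like nuclei, the latter from 2, 29 and 19 UMIs. Oas3 was near the limit of counting in every class, with at most 9 UMIs in a library of any of the 6 classes compared.

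The Ifit genes, whose products bind foreign RNA ends, were near the limit of counting in acinar-like nuclei. Ifit2 had 1, 1 and 2 UMIs there and Ifit3 had 1, 1 and 3, although those nuclei held at least 10795381 UMIs in each library, against 6, 40 and 39 UMIs of Ifit3 in the fibroblast-like nuclei. As CPM, Ifit3 in fibroblast-like nuclei was at 6.24 in Non-IR, 34.1 in IR+saline and 25.9 in IR+pilocarpine, 5.47-fold higher (2.30 to 15.8) in IR+saline. Ifit1 was at 14.7, 59.2 and 20.7 CPM in endothelial-like nuclei and at 2.70, 11.7 and 7.36 CPM in duct-like nuclei, 4.02-fold (1.63 to 11.9) and 4.33-fold (2.09 to 10.4) higher in IR+saline. The promoters of Ifit1 and Ifit3 printed above each hold a pair of ISRE matches.

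Most effectors of less settled function given here stood above Non-IR in both irradiated libraries, though acinar-like Trim30a and fibroblast-like Helz2 did not. Ifi27l2a, a small mitochondrial or membrane protein gene, was at 21.6, 76.1 and 66.2 CPM in acinar-like nuclei, 3.53-fold higher (3.07 to 4.07) in IR+saline than in Non-IR. Within acinar cluster 0 its levels were 22.4, 69.4 and 53.8 CPM, and within cluster 2 they were 18.0, 72.9 and 55.3 CPM. Its neighbour on chromosome 12, Ifi27, was at 189, 232 and 223 CPM in acinar-like nuclei, a 1.23-fold difference (1.16 to 1.30), and at 157, 217 and 212 CPM in duct-like nuclei. Ifi27l2a was highest in IR+pilocarpine in duct-like nuclei, at 17.2, 41.9 and 60.1 CPM, and in fibroblast-like nuclei, where it stood at 10.4, 29.9 and 56.5 CPM. Ifi44 was at 6.41, 32.7 and 11.0 CPM in duct-like nuclei, 5.10-fold higher (3.18 to 8.64) in IR+saline than in Non-IR, and Rtp4, a chaperone of receptors, at 3.04, 16.6 and 12.3 CPM, 5.46-fold higher (2.77 to 12.3). The largest finite ratio past 2-fold in that class was that of Trim30a, a regulator of innate signalling, at 2.02, 19.7 and 7.98 CPM, 9.75-fold (4.36 to 27.1) from 6, 125 and 13 UMIs. Trim30a in acinar-like nuclei was lowest in IR+saline, at 2.41, 1.30 and 3.13 CPM. Parp14, an ADP-ribosyltransferase, was at 99.9, 152 and 139 CPM in the fibroblast-like class, and Helz2, a helicase, went the other way there, at 38.5, 20.5 and 26.6 CPM.

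**Figure D3:**
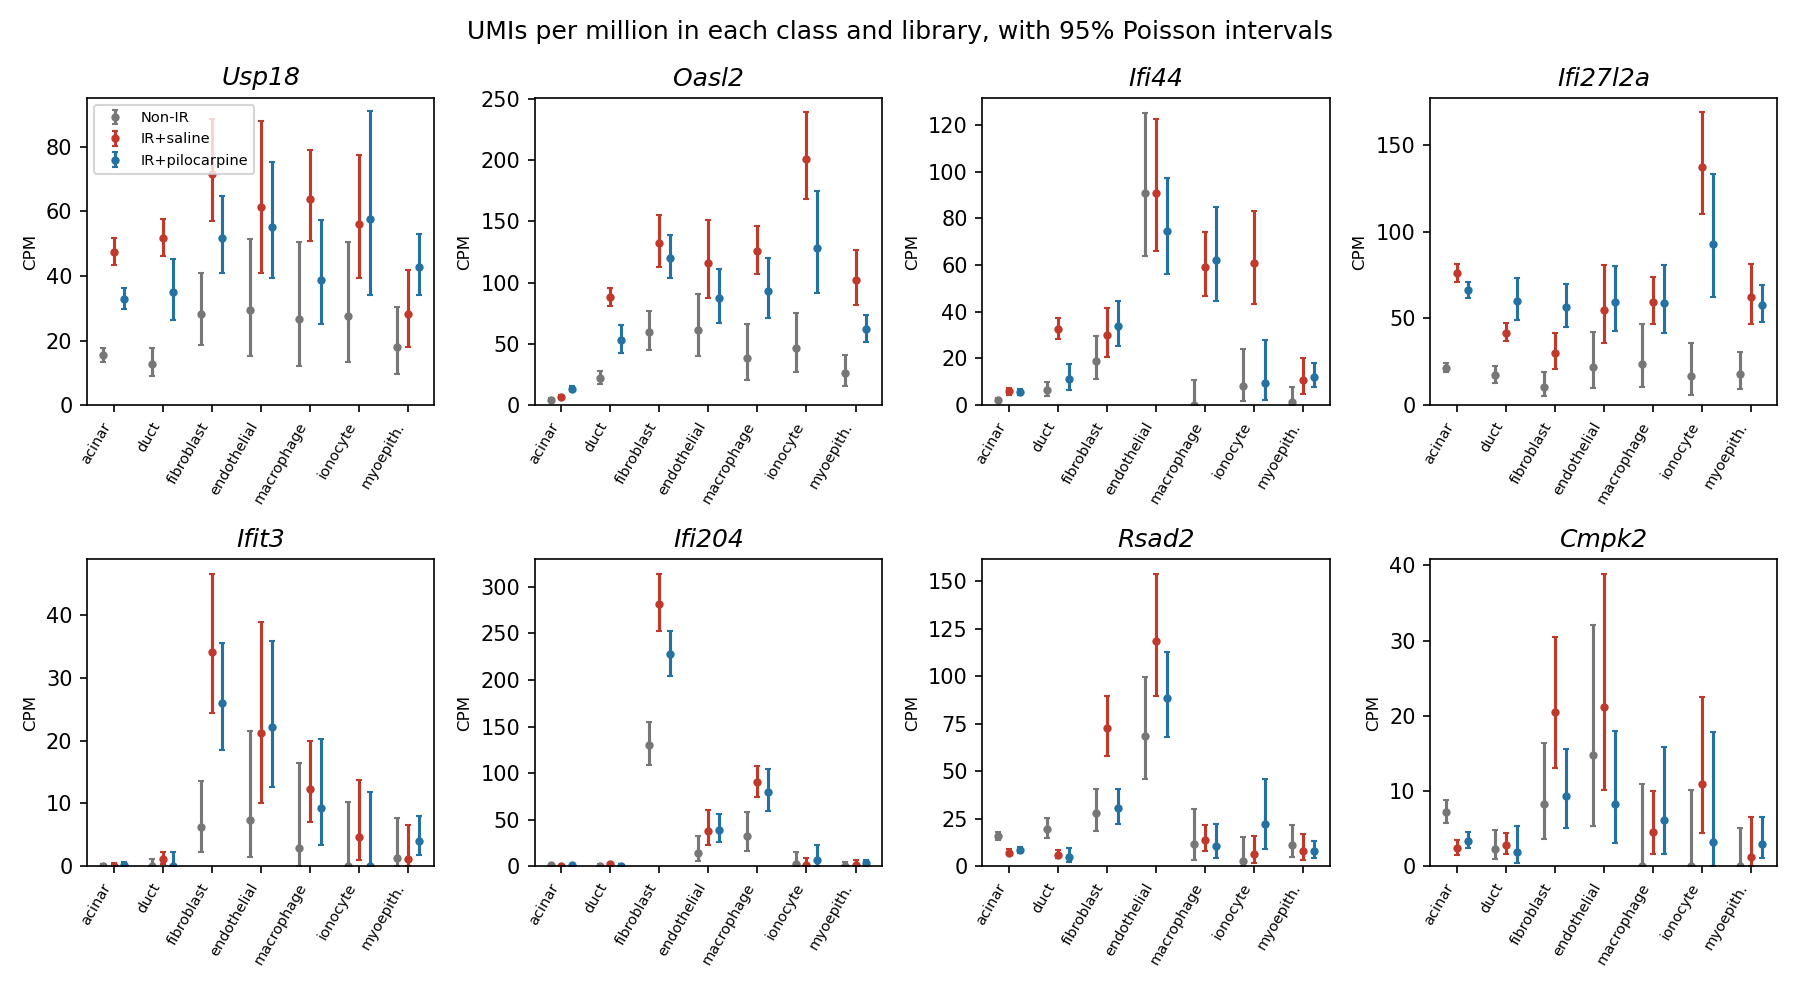
Level of 8 of the genes (CPM, linear axes from 0) in 7 classes of nuclei, with 1 point per library and 95% Poisson bars. Usp18 and Oasl2 are lowest in Non-IR in every class shown, Ifit3 and Ifi204 are near 0 in the acinar, duct, ionocyte and myoepithelial columns, and Rsad2 is highest in Non-IR in the acinar and duct columns.

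Rsad2 in acinar-like and duct-like nuclei, and Cmpk2 in acinar-like nuclei, went the other way. Rsad2 encodes viperin, which makes a chain-terminating nucleotide from the product of CMPK2, and the genes are neighbours, 12751 bases apart on chromosome 12. Rsad2 was at 15.7, 7.23 and 8.51 CPM in acinar-like nuclei of Non-IR, IR+saline and IR+pilocarpine, 2.18-fold lower (1.67 to 2.87) in IR+saline than in Non-IR, and at 19.6, 6.16 and 4.91 CPM in duct-like nuclei, 3.18-fold lower (2.08 to 4.90). Cmpk2 was at 7.22, 2.41 and 3.37 CPM in acinar-like nuclei, where the ratio of IR+saline to Non-IR was 0.334 (0.207 to 0.521), and at 2.36, 2.84 and 1.84 CPM in duct-like nuclei, with no 2-fold difference. Within acinar cluster 0 Rsad2 was at 32.3, 6.85 and 10.2 CPM, and within cluster 1 at 7.51, 10.4 and 6.11 CPM from 3, 23 and 26 UMIs. Within cluster 2 it had 76, 0 and 7 UMIs, of 6206506, 384229 and 832059 UMIs of all genes. Within cluster 3 it had 83, 1 and 5 UMIs, of 2586020, 251288 and 553944. These counts are not scaled, and most of the UMIs of both clusters came from Non-IR. In ionocyte-like nuclei Rsad2 had 1, 4 and 7 UMIs. In fibroblast-like nuclei both stood higher in IR+saline, Rsad2 at 28.1, 72.5 and 30.6 CPM and Cmpk2 at 8.33, 20.5 and 9.31 CPM, although the Cmpk2 ratio turned to 0.842 among nuclei with at least 1000 genes.

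The acinar-like and duct-like difference in Rsad2 rested on few nuclei. Of its 196 UMIs in acinar-like nuclei of Non-IR, 48 were in 1 nucleus and 117 (59.7%) in 5 of 6952 nuclei. In duct-like nuclei of Non-IR 5 nuclei held 45 of 58 UMIs. Of the 60 acinar-like Non-IR nuclei with Rsad2, 8 also had Cmpk2, and these 8 held 121 of the 196 Rsad2 UMIs. With at most 1 UMI per nucleus the ratio of IR+saline to Non-IR was 0.905 in acinar-like and 0.936 in duct-like nuclei, so that the difference was no longer past 2-fold. The share of acinar-like nuclei with an Rsad2 UMI was 0.863% in Non-IR, 1.35% in IR+saline and 1.63% in IR+pilocarpine at median depths of 1501, 2485 and 2180 UMIs, so that Non-IR, highest by CPM, was lowest by the share of nuclei. The same few-nuclei pattern was present in fibroblast-like nuclei of IR+saline, where 5 nuclei held 47 of 85 Rsad2 UMIs.

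The comparison of IR+pilocarpine with IR+saline sets the agonist against saline after irradiation. In duct-like nuclei 1 of 33 genes was at least 2-fold higher and 4 were lower (background 1.98% and 4.46%), the median log2 ratio was -0.39 against 0.02 over all genes, and 28 of the 33 lay below no change. The 4 lower genes were Ifi44, 2.96-fold (1.83 to 5.09), Trim30a, 2.47-fold (1.40 to 4.78), Oasl1, 2.26-fold (1.36 to 3.98), and Irf7, 2.20-fold with a ratio of 0.454 (0.20 to 0.908), and the higher gene was Oas2. Oasl1, an OAS-like protein gene, was at 8.44, 23.5 and 10.4 CPM in Non-IR, IR+saline and IR+pilocarpine. The summed duct-like level was 1.20-fold lower (1.15 to 1.25). Mucl2, a secretory gene of acinar cells, was at 28096 CPM in duct-like nuclei of IR+saline and 47189 in IR+pilocarpine, and its part in the lower level was not tested. In acinar-like nuclei Mucl2 was at 57771 and 55265 CPM. It was also higher in IR+pilocarpine in the fibroblast-like (26996 and 43272 CPM), endothelial-like, macrophage-like and T or NK-like nuclei. When each library was clustered alone, the duct-like ratio was 0.949 and Trim30a was 1.02-fold higher in place of lower. The duct-like class of IR+pilocarpine then took in a cluster of 365 nuclei with a median of 18792 UMIs. In the joint clustering the median of that class was 1579 UMIs, so these ratios cover different nuclei.

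In acinar-like and fibroblast-like nuclei the summed levels of the irradiated libraries lay close together. Acinar-like nuclei had 2 of 33 genes past 2-fold higher, Oasl2 and Trim30a, and none lower (1.52% and 1.15%), with a summed ratio of 1.02 (1.00 to 1.04) that lay at 0.98 after thinning to 800 UMIs per nucleus and at 0.946 after the lowest class was subtracted. Fibroblast-like nuclei had 1 of 35 higher and 2 lower (4.3% and 2.06%), with a summed ratio of 0.998 (0.954 to 1.04). The higher gene was Oas1a, and the lower genes were Rsad2, 2.37-fold (1.64 to 3.47), and Cmpk2, with a ratio of 0.454 (0.217 to 0.914). With at most 1 UMI per nucleus the fibroblast-like Rsad2 ratio was 0.879.

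Against Non-IR, the IR+pilocarpine library stood above in each class, with summed ratios of 1.19 (1.17 to 1.21) in acinar-like, 1.23 (1.17 to 1.29) in duct-like, 1.51 (1.43 to 1.60) in fibroblast-like, 1.48 (1.36 to 1.62) in macrophage-like and 1.07 (0.995 to 1.16) in endothelial-like nuclei, the last with an interval that held no difference. With each library clustered alone the macrophage-like ratio was 2.36. There the Non-IR macrophage-like class held 387 nuclei at a median of 7054 UMIs, against 98 at a median of 1784 in the joint clustering. That ratio thus covers different nuclei. The counts at least 2-fold higher and lower were 9 and 1 of 34 in acinar-like nuclei (3.4% and 2.2% of all genes), 8 and 1 of 28 in duct-like (2.61% and 2.11%), 10 and 0 of 34 in fibroblast-like (4.36% and 1.96%), 8 and 0 of 27 in macrophage-like (5.66% and 2.26%) and 3 and 0 of 27 in endothelial-like nuclei (5% and 2.81%). These ratios share libraries with the comparisons above and are not independent of them.

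Endothelial-like nuclei, which line the vessels, had high levels of these genes already in Non-IR. Ifi44 stood at 90.9, 90.9 and 74.6 CPM there, and Herc6, an ISG15 ligase in mice, at 160, 203 and 162 CPM. Samd9l, an inhibitor of translation and growth, was at 56.5, 118 and 48.4 CPM, 2.10-fold higher (1.27 to 3.57) in IR+saline than in Non-IR and 2.45-fold lower (1.58 to 3.85) in IR+pilocarpine than in IR+saline. Ifit1, Ifit2 and Bst2 were also highest in IR+saline, and with Samd9l they were the 4 of 31 genes at least 2-fold lower in IR+pilocarpine, against 1 higher, Dtx3l (background 3.7% lower and 4.5% higher). Bst2, the membrane tether that holds budding virus, was at 22.1, 50.7 and 19.3 CPM, from 9, 24 and 14 UMIs. The choice of these 4 genes set IR+saline above IR+pilocarpine, and in each of them IR+saline also stood above Non-IR. The summed ratio of IR+pilocarpine to IR+saline was 0.910 (0.850 to 0.975), and it turned to 1.08 with each library clustered alone. Among the most abundant genes, Ifi27 was at 118, 142 and 169 CPM and Parp14 at 152, 133 and 146 CPM. The summed macrophage marker level in endothelial-like nuclei was 24.6, 69.8 and 64.9 CPM, from 10, 33 and 47 UMIs of 9 markers, with Cd163 at 0 in each library, and its part was not tested.

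Macrophage-like nuclei had their difference against Non-IR spread over many genes. Epsti1, a gene of immune cells, was at 169, 271 and 323 CPM, and Oasl2 at 38.5, 125 and 93.2 CPM, 3.26-fold higher (1.85 to 6.25) in IR+saline than in Non-IR. Ifi44 had 0 UMIs in 98 Non-IR nuclei, where 3 UMIs would be 8.89 CPM, against 59.2 CPM in IR+saline and 62.2 in IR+pilocarpine. Parp9, an ADP-ribosyltransferase that works with DTX3L, was at 35.5, 86.2 and 107 CPM, a 2.42-fold difference (1.33 to 4.83). Trim30a and Ifi27 were more even, at 121, 143 and 159 CPM and at 133, 168 and 148 CPM. Between the irradiated libraries none of 35 genes was 2-fold higher and 2 were lower, Ifit1 and Ifit2 (3.18% and 3.66%), and the summed ratio was 0.958 (0.907 to 1.01). After thinning to 800 UMIs per nucleus, at least 3 of the genes were seen in 21.3%, 42.8% and 45.6% of macrophage-like nuclei (64.3%, 82.6% and 82.4% unthinned, with 9, 19 and 7 shallower nuclei left out of the thinned shares). The same thinned shares were 28.4%, 41.1% and 37.8% in endothelial-like nuclei (59.9%, 75.9% and 70.4% unthinned, 28, 11 and 32 left out). In duct-like nuclei they were 6.22%, 17.4% and 10.2% (32.6%, 51.0% and 44.8% unthinned, 98, 181 and 23 left out), and in acinar-like nuclei 6.30%, 11.4% and 11.2% (25.6%, 56.6% and 50.7% unthinned, 522, 77 and 103 left out). In myoepithelial-like nuclei, the plotted class with the lowest sums, they were 5.17%, 7.63% and 9.10%.

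T or NK-like nuclei were 37, 84 and 88 in number, too few in Non-IR for a comparison with that library, where their marker Cd3e was at 0. Their summed level was 3411 CPM in IR+saline and 2305 in IR+pilocarpine, 1.48-fold lower (1.33 to 1.65) in IR+pilocarpine, and 13 of the 16 genes with 20 UMIs lay below no change. The 3 genes at least 2-fold lower were Trim25, Herc6 and Trim30a, and none was higher (6.01% and 6.19%). Trim25, a ubiquitin ligase of the RIG-I pathway, had 23 and 6 UMIs in 8 and 6 nuclei, or 107 and 23.7 CPM, and its ratio was 0.639 with at most 1 UMI per nucleus. Trim30a was at 227 and 107 CPM, 2.13-fold lower (1.31 to 3.54), and Herc6 at 158 and 59.3 CPM, 2.66-fold lower (1.41 to 5.26). Epsti1 was at 501 and 277 CPM, 1.81-fold lower (1.33 to 2.48), and Stat2 went the other way, at 135 and 233 CPM, while Sp100 was at 668 and 553 CPM and Ifi27 at 162 and 158 CPM. B cell or plasma cell markers summed to 111 CPM in these nuclei of IR+saline and 19.8 CPM in IR+pilocarpine, and their part in the lower level was not tested.

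Ionocyte-like nuclei, a minor epithelial type of the duct, had the largest ratio of IR+saline to Non-IR of the classes plotted. The ratios of this class were not recomputed under other ways of processing. Their sum was 1386 CPM in Non-IR, 2580 in IR+saline and 2081 in IR+pilocarpine, 1.86-fold higher (1.68 to 2.06) in IR+saline than in Non-IR, and 10 of 23 genes were at least 2-fold higher with none lower (5.03% and 3.02%). Oasl2 was at 46.8, 201 and 128 CPM, Ifi27l2a at 16.5, 137 and 92.8 CPM, and Ifi44 at 8.26, 60.8 and 9.60 CPM. Non-IR was lowest for all 3, and for Ifi44 the IR+pilocarpine library, with 3 UMIs, stood close to it. Between the irradiated libraries none was 2-fold higher and 3 of 23 were lower, Ifi44, Trim30a and Samd9l (4.94% and 5.11%). Mucl2 was at 25655 CPM in these nuclei of IR+saline and 46050 in IR+pilocarpine. This direction was shared by each class compared but the acinar-like one, and the part of Mucl2 was not tested.

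The rest of the pathway was read from a list of 87 further genes, of which 86 had a row. The list held ligands, receptors and kinases, transcription factors, and genes of nucleic acid sensing and clearance. It also held other interferon-induced genes, so counts over the whole list do not describe the upstream pathway alone. The ligands were close to absent: Ifnb1 had 0, 0 and 1 UMIs over all nuclei, Ifng had 0, 4 and 1, and Ifnk, an interferon of epithelium, had 43, 47 and 93. The receptor chains and kinases differed little, with 1 of 9 past 2-fold in fibroblast-like nuclei, Ifnar1, and none in the acinar-like, duct-like, endothelial-like and macrophage-like nuclei between IR+saline and Non-IR. Over the whole list, 6 of 60 genes were at least 2-fold higher in IR+saline than in Non-IR and 2 lower in acinar-like nuclei (3.39% and 3.07% of all genes), 5 and 1 of 59 in duct-like (4.27% and 1.91%), 6 and 1 of 53 in fibroblast-like (5.06% and 5.55%), 2 and 1 of 44 in endothelial-like (4.4% and 3.61%), and 10 and 0 of 56 in macrophage-like nuclei (7.47% and 2.98%), so that the endothelial-like counts lie near those shares. Lgals3bp, a secreted glycoprotein, is 1 of the interferon-induced genes of the list. It was among those higher in the acinar-like, duct-like, fibroblast-like and macrophage-like nuclei, at 2.36, 11.8 and 6.14 CPM in duct-like nuclei.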

How the data were processed

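The deposited values are UMI counts per gene and nucleus barcode, made by the authors with Cell Ranger 7.0.1 per the file headers, on the build GRCm38 per the submitters' processing notes. They are not normalized, and the annotation and the treatment of intronic reads are not given in the sources used here. Barcodes under 500 genes or over 5% mitochondrial UMIs were left out (27633 of 32511 barcodes and 88101885 UMIs remained). No column of per-sample values was left unused. Scrublet marked 0 doublets in every library and thus did not work here, and doublets remain. Nuclei of all libraries were clustered together with scanpy 1.11.5 and leidenalg 0.10.2 (3000 variable genes without the genes reported, 30 components, 15 neighbours, resolution 1), with no integration. A cluster took the name of the nearest class when at least 3 markers were detected and its relative marker level reached 0.65. Its 10 leading genes also had to hold at least as many markers of that class as of any other. The level of 0.65 and the naming rule were set after the clusters were seen, and the names may differ from the study's.

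UMIs were summed per class and library and divided by all UMIs of the class (CPM). A ratio has an exact conditional binomial interval, a CPM an exact Poisson interval, and a share an exact Clopper-Pearson interval. Genes were called at 2-fold where the pair of libraries held 20 or more UMIs, so a gene can pass through the deeper library alone. Calls thus lean toward the deeper library of a pair. The log2 ratios used a pseudocount of 1 CPM, and classes needed 50 nuclei in both libraries. The calling was tried on simulated counts drawn independently with known changes. These counts held neither UMIs gathered in few nuclei nor differences between replicate libraries, so they cannot show how the calls fare under either. Ratios were recomputed with other filters, depths, clusterings, scalings and gene sums. Values are printed for the 5 genes with most UMIs and the 3 farthest from no change in each class, and for others that complete a role. One gene of the pathway list is not reported here. The genes and lists were chosen with earlier results of these data known. Promoters are from RefSeq (GRCm38.p6), and transcripts and positions from the annotation of GRCm38. Python 3.11.15, scipy 1.17.1 and numpy 2.4.6 were used.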

Additional observations from a re-analysis of the deposited data

Results flagged for a closer look

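The summed level of the genes in IR+pilocarpine against IR+saline lay on opposite sides of no change in different classes, with counting intervals that did not reach no change. The ratio was 1.02 in acinar-like nuclei, and 0.836 in granular or striated duct-like, 0.910 in endothelial-like and 0.676 in T or NK-like nuclei. The acinar-like ratio turned to 0.98 after thinning, 0.946 with the lowest class subtracted and 0.988 as a mean over nuclei, and the endothelial-like ratio turned to 1.08 with each library clustered alone. The difference between classes was not tested, since there was 1 library per group.

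Barcodes under the minimum of 500 genes, which no comparison used, also carried these genes. Their summed level was 2252 CPM in IR+saline and 1791 CPM in IR+pilocarpine, above the 1492 CPM of the same kind of barcode in Non-IR, and the difference was not tested. In the same barcodes Mucl2 was at 71881 CPM in Non-IR, 92635 in IR+saline and 196691 in IR+pilocarpine.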

How the results depend on the processing

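Of 127 values of the summed ratio under 8 other ways of processing, 86 lay within the counting interval of the reported ratio. Another 37 lay outside it, and 4 changed direction where that interval did not hold no change. These 37 and 4 values are given next. Of the 127, 118 lay on the same side of no change as the reported value, and the causes of the differences were not tested. Thinning to 800 UMIs gave 1.21 for IR+saline against Non-IR in acinar-like, 1.53 in duct-like, 1.35 in endothelial-like and 1.77 in macrophage-like nuclei, 1.24 and 1.73 for IR+pilocarpine against Non-IR in endothelial-like and macrophage-like nuclei, and 0.98 and 0.770 for IR+pilocarpine against IR+saline in acinar-like and duct-like nuclei. Clustering each library alone changed which nuclei a class held. The Non-IR macrophage-like cluster then held 387 nuclei at a median of 7054 UMIs. The duct-like class of IR+pilocarpine took in a cluster of 365 nuclei at a median of 18792 UMIs. For IR+saline against Non-IR this clustering gave 1.07 in endothelial-like and 1.90 in macrophage-like nuclei. For IR+pilocarpine against Non-IR it gave 1.43 in duct-like and 2.36 in macrophage-like nuclei. For IR+pilocarpine against IR+saline it gave 1.08, 0.949, 1.25 and 0.779 in endothelial-like, duct-like, macrophage-like and T or NK-like nuclei. Subtracting from each class the lowest level of each gene over the classes gave, for IR+saline against Non-IR, 1.22 in acinar-like, 1.84 in duct-like, 1.75 in fibroblast-like and 1.79 in macrophage-like nuclei, for IR+pilocarpine against Non-IR 1.16 in acinar-like and 1.67 in fibroblast-like nuclei, and for IR+pilocarpine against IR+saline 0.946, 0.665, 0.843 and 0.551 in acinar-like, duct-like, endothelial-like and T or NK-like nuclei. Leaving out Sp100 gave 1.40, 1.77, 1.63 and 1.77 in acinar-like, duct-like, fibroblast-like and macrophage-like nuclei for IR+saline against Non-IR, and 1.41, 1.46 and 1.69 in acinar-like, duct-like and macrophage-like nuclei for IR+pilocarpine against Non-IR. The mean over nuclei gave 1.22 and 1.76 in acinar-like and macrophage-like nuclei for IR+saline against Non-IR, 1.23 and 1.69 in endothelial-like and macrophage-like nuclei for IR+pilocarpine against Non-IR, and 0.988 in acinar-like nuclei for IR+pilocarpine against IR+saline. Removing the 8% highest doublet scores gave 1.42 in fibroblast-like nuclei for IR+saline against Non-IR, 1.07 there for IR+pilocarpine against IR+saline, and 0.975 in endothelial-like nuclei for IR+pilocarpine against Non-IR. The 1000-gene minimum gave no T or NK-like value, because fewer than 50 nuclei remained.

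Of 534 values for single genes past 2-fold, 5 changed direction: with the lowest class subtracted, IR+saline against Non-IR was 0.559 for Ifi44 and 0 for Samd9l in acinar-like nuclei and 0.557 for Bst2 in duct-like nuclei, with 1000 genes Cmpk2 in fibroblast-like nuclei was 0.842, and clustered alone Trim30a in duct-like nuclei was 1.02 for IR+pilocarpine against IR+saline. With at most 1 UMI of a gene per nucleus, a choice made after seeing the data, 71 of 78 ratios stayed within their counting interval, and 3 of the other 7 were those of Rsad2. At 1.5-fold in place of 2-fold, with the count at 2-fold and the percentage of all genes past 1.5-fold in brackets, the counts for IR+saline against Non-IR were 12 higher (7, 8.45%) and 4 lower (2, 8.85%) in acinar-like, 1 lower (0, 14.6%) in fibroblast-like and 23 higher (14, 16.2%) in macrophage-like nuclei. For IR+pilocarpine against IR+saline they were 2 higher (1, 9.32%) and 12 lower (4, 11%) in duct-like, 4 higher (1, 13.3%) and 4 lower (2, 8.51%) in fibroblast-like, 5 lower (2, 10.1%) in macrophage-like, and 1 higher (0, 16.9%) and 7 lower (3, 17.2%) in T or NK-like nuclei. For IR+pilocarpine against Non-IR they were 15 higher (9, 9.74%) and 3 lower (1, 6.58%) in acinar-like, 14 higher (8, 8.44%) in duct-like, 19 higher (10, 12.6%) in fibroblast-like, 5 higher (3, 14%) in endothelial-like and 15 higher (8, 14.9%) in macrophage-like nuclei. No paired analysis was possible because a group holds a single library. Genes with few UMIs, such as Oas3, Ifit3b and Zbp1, were limited by depth.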

Other observations

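Non-IR was also lowest in other classes of nuclei, whose differences were not tested. Schwann-like nuclei, which wrap the nerves of the gland, held the genes at 1474 CPM in Non-IR, 2602 in IR+saline and 2184 in IR+pilocarpine, on 67, 56 and 73 nuclei. Myoepithelial-like nuclei, the contractile cells around the acini, held 942, 1254 and 1359 CPM, and Sp100 made up 12.3% of the sum there in IR+pilocarpine. Cycling-like nuclei held 1276, 1495 and 1581 CPM, on 244, 215 and 202 nuclei. With each library clustered alone, the cycling-like clusters held 19, 59 and 164 nuclei, so the class depends on the clustering. An unnamed cluster of 1276 nuclei with a median of 8489 UMIs, whose leading genes included Ascl3, Rcan2 and Clnk, held 1482, 2078 and 1979 CPM.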
